A study of Mus musculus with 7 samples.

Results

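The mitochondrial ribosomal proteins are the nuclear-encoded protein subunits of the ribosome that works inside mitochondria. Their genes were taken here as every gene row whose mouse symbol, looked up from its Ensembl identifier, was Mrpl or Mrps followed only by digits. That rule found 75 of the 47643 gene rows, 49 with Mrpl symbols and 26 with Mrps symbols. It leaves out Mrps18a, Mrps18b and Mrps18c, whose symbols end in a letter, and subunits such as Dap3 and Ptcd3 that carry other names. These were kept as a separate list.

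The 4 PEGPH20 and 3 vehicle libraries came from subcutaneous right-flank tumours in C57BL/6 mice labelled as 13 weeks old. All 7 tumours grew from cells labelled MTOs that carry sgPrkci/Prkcz, a joint edit of the atypical protein kinase C genes, so no unedited tumour was compared. The cells were injected in 30% Matrigel at a host age of 7 weeks. From day 15 the PEGPH20 mice (replicates 11, 12, 19 and 37) received 0.0375 mg/kg of PEGPH20, a pegylated hyaluronidase, and the vehicle mice (replicates 14, 16 and 33) received vehicle, 2 times a week for 3 weeks. The hosts kept their own cells, so tumour and host transcripts share each library. The contrast asks how tumour expression differed after the enzyme was given.

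The mitochondrial ribosome translates the few messenger RNAs of the mitochondrial genome, all of which encode core parts of the respiratory chain and of ATP synthase. Its proteins are made in the cytosol and imported, and they must match in amount the ribosomal RNAs made inside the organelle. Compared with its bacterial ancestor it has lost RNA and gained proteins, so that each subunit holds relatives of bacterial ribosomal proteins together with proteins found only in mitochondria. Dividing cells that build respiratory chain need these genes, and their transcripts are present in nearly every tissue.

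The values are the authors' normalised read counts, that is, reads per gene divided by a size factor per library. Differences are PEGPH20 minus vehicle on the log2(value + 1) scale, from limma fitted to all 17132 genes with a mean of at least 1, and adjusted p is the Benjamini-Hochberg value over all of them with a threshold of 0.05. The libraries held 4582238 to 6703775 reads with PEGPH20 and 4204388 to 4304108 with vehicle. All 10 epithelial marker genes were detected, with a summed level of 17208 to 19921 in PEGPH20 and 18501 to 21899 in vehicle libraries. Fibroblast markers summed to 8307 to 21560 in PEGPH20 and 17480 to 44661 in vehicle libraries, and skeletal muscle markers to 179 to 2449 in PEGPH20 and 232 to 11005 in vehicle libraries. T cell markers summed to 76.2 to 138 in PEGPH20 and 54.7 to 119 in vehicle libraries, and keratinocyte markers to 40.9 to 66.3 in PEGPH20 and 61.6 to 1095 in vehicle libraries. In such bulk tissue, fewer cells of a type and less RNA per cell cannot be told apart.

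As these genes share a function but not a locus, their upstream DNA is shown first for 6 of them. Known regulators of mitochondrial genes include NRF1, the ETS factor GABPA and YY1. RefSeq gave a promoter window (250 bases before to 50 after the start, GRCm38.p6) for 66 of the 75 genes, 72 windows in all. A script searched both strands for 5 letter strings: the full NRF1 palindrome (GCGCA followed directly by its reverse complement TGCGC), a shorter NRF1 string TGCGCA that can overlap it, the YY1 string AAGATGGC, the ETS string CCGGAAG and the E-box CACGTG. The first pair below are those with the largest PEGPH20 minus vehicle differences that had a window (Mrpl12, chr11:120484507-120484636, plus strand; Mrpl40, chr16:18876638-18876767, minus strand), then a member with 2 different strings (Mrpl58, chr11:115403622-115403751, plus strand), then the 3 members with the full NRF1 palindrome (Mrpl9, chr3:94443206-94443335, plus strand; Mrpl32, chr13:14613038-14613167, minus strand; Mrpl39, chr16:84735245-84735374, minus strand). Each line is the 130 bases before the RefSeq start, 5′ to 3′ on the gene's strand, and capitals mark the matched letters. GENCODE release M21 places some starts elsewhere. By its positions the lines of Mrpl40 and Mrpl39 lie inside the gene, and those of Mrpl32, Mrpl12 and Mrpl9 reach into it.
Mrpl12: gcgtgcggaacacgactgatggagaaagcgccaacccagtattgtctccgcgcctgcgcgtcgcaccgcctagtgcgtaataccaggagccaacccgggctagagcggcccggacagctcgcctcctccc
Mrpl40: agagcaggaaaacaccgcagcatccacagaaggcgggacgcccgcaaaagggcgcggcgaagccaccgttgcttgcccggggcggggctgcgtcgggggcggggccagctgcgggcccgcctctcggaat
Mrpl58: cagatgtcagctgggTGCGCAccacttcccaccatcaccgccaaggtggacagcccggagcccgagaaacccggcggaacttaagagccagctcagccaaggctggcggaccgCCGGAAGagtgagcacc
Mrpl9: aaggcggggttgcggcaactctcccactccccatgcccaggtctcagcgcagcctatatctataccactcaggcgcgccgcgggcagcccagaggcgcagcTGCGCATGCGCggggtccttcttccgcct
Mrpl32: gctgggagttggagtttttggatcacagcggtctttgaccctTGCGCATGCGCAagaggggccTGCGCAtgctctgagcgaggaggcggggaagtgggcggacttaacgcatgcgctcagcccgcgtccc
Mrpl39: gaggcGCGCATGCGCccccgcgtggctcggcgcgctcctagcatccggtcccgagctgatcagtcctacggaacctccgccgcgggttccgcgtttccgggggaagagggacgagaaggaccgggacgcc

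The ETS string was in 31.9% of the members' windows, against 11.6% of the 21263 windows of protein-coding genes and 8.86% of all 32851 windows. TGCGCA was in 27.8%, against 9.74% and 7.76%. The YY1 string was in 15.3%, against 3.05% and 2.75%, the full NRF1 palindrome in 4.17%, against 1.33% and 0.971%, and the E-box in 8.33%, against 7.84% and 7.15%. These shares are per window, and a gene can have more than 1 window. The 6 windows with the E-box came from 4 of the 66 genes, and the 20 with TGCGCA from 19. The members' windows were also richer in G and C, with a median of 58.5% against 56.3% in protein-coding and 52.7% in all windows, and the part of base composition in these shares was not tested. No string was found in the window of 22 members, Mrpl12 and Mrpl40 among them. The median difference was 0.20 in the 22 tested members with the ETS string and 0.15 in the 43 without it. It was 0.15 in the 19 with TGCGCA and 0.19 in the 46 without, and 0.22 in the 11 with the YY1 string and 0.16 in the 54 without. It was 0.06 in the 3 with the full NRF1 palindrome and 0.19 in the 62 without, and 0.11 in the 4 with the E-box and 0.19 in the 61 without. The differences between these medians were not tested.

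Most mitochondrial ribosomal protein genes were moderately and similarly expressed. Of the 75 genes, 62 had a mean over all libraries of 50 to 250 normalised read counts, 5 lay above 250, 5 between 10 and 50, and 3 under 10. Of all tested genes, 31.4% had a mean of 50 to 250. The kit reads transcripts from their 3′ end and makes about a fragment per transcript, so levels were not divided by length. The highest was Mrpl33, a small protein of the large subunit near the tRNA exit site, with 559, 517, 576 and 689 normalised read counts in PEGPH20 libraries and 525, 611 and 408 in vehicle libraries. Its exons overlap a gene model on the same strand, so its level is uncertain. Mrpl52, a mitochondria-specific protein, had 393, 414, 391 and 446 in PEGPH20 and 356, 407 and 314 in vehicle libraries. Mrpl34 had 350, 313, 339 and 413 in PEGPH20 and 314, 312 and 271 in vehicle libraries. In all 3 genes the PEGPH20 and vehicle values overlapped.

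The lowest members were Mrpl53, Mrps36 and Mrpl23, which were also the most variable over the 7 libraries on the log2 scale. Mrpl53, a protein of the stalk that recruits translation factors, had 2 reads in all: 0.83, 0, 0 and 0.73 normalised read counts in PEGPH20 and 0 in each vehicle library, and it was the 1 member not tested by limma. Its exons overlap 1 gene model on each strand. Mrpl23, a protein of the exit of the peptide tunnel, had 1.66, 2.07, 3.31 and 1.46 in PEGPH20 and 3.49, 5.51 and 2.6 in vehicle libraries, 26 reads in all. Its difference of -0.63 ± 0.40 (SE) was the lowest of the members and did not pass limma's threshold (adjusted p = 0.537). Mrps36 had 3.31, 6.2, 4.97 and 8.76 in PEGPH20 and 3.49, 9.19 and 7.81 in vehicle libraries. Despite its symbol, its product is now counted as a subunit of the 2-oxoglutarate dehydrogenase complex and not of the ribosome. At these depths a difference of the size seen in most other members would lie within the SE (0.40 for Mrpl23 and 0.41 for Mrps36). Over all tested members the median SE was 0.15, and no member was called at any level.

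Between replicates of a group the members varied more than counting alone gives, and about as much as other genes did. Over the 72 members with a mean of at least 10, the median SD within groups was 0.19 on the log2 scale, where the counting error of the reads gives 0.12. Over all 12515 genes with such a mean the corresponding values were 0.21 and 0.13. Of those 72 members, 46 varied less than the median gene. Together the 75 genes took 0.276%, 0.267%, 0.266% and 0.326% of the reads in PEGPH20 replicates 11, 12, 19 and 37, and 0.241%, 0.272% and 0.224% in vehicle replicates 14, 16 and 33.

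No mitochondrial ribosomal protein gene passed the threshold, but most had somewhat larger values with PEGPH20. By limma, 0 of 74 tested members were called, as were 0 of all 17132 genes (0%), and the smallest adjusted p of a member was 0.287. The difference was above 0 in 64 of the 74, or 86.5%, where 54% of all tested genes were above 0. The members' median was 0.16, with an interquartile range of 0.08 to 0.28, and the median of all tested genes was 0.03, with an interquartile range of -0.19 to 0.24. At an unadjusted p under 0.05, 12 members had larger values (16.2%, against 7.58% of all genes) and 0 had smaller ones (against 4.58%). All genes include many of lower level than the members, 72 of which had a mean of at least 10. Of the 12515 genes with such a mean, 1105 had larger values at that p and 646 had smaller ones. The count of 12 members rested on single libraries. It was 4 members (5.41%) with PEGPH20 replicate 37, vehicle replicate 14 or vehicle replicate 33 left out, against 5.31%, 5.2% and 4.91% of all genes, and 7 (9.46%, against 4.86%) with PEGPH20 replicate 11 left out. With vehicle replicate 16 left out it was 27 (36.5%, against 13.2%). The edgeR test on recovered reads called 0 of 72 members, with 8 at an unadjusted p under 0.05, all with larger values (11.1%, against 6.25%) and 0 with smaller ones (against 6.77%). DESeq2 called 0 of 75 members and 0.315% of all genes. At an unadjusted p under 0.05 it had 4 members with larger values (5.33%, against 2.7%) and 0 with smaller ones (against 3.39%). Some genes, Mrpl46 and Mrps11 among them, had no DESeq2 adjusted p and were counted as not called.

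The scaling of the libraries bears on these shares. With DESeq2 size factors in limma, 60 of 74 members (81.1%) lay above 0, against 49.7% of all genes, and the median was 0.13. Then 8 members (10.8%) had larger values at an unadjusted p under 0.05, against 6.02% of all genes. Of all genes at an unadjusted p under 0.05, 62.3% had larger values with the authors' size factors and 50.5% with those of DESeq2.

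**Figure D1:**
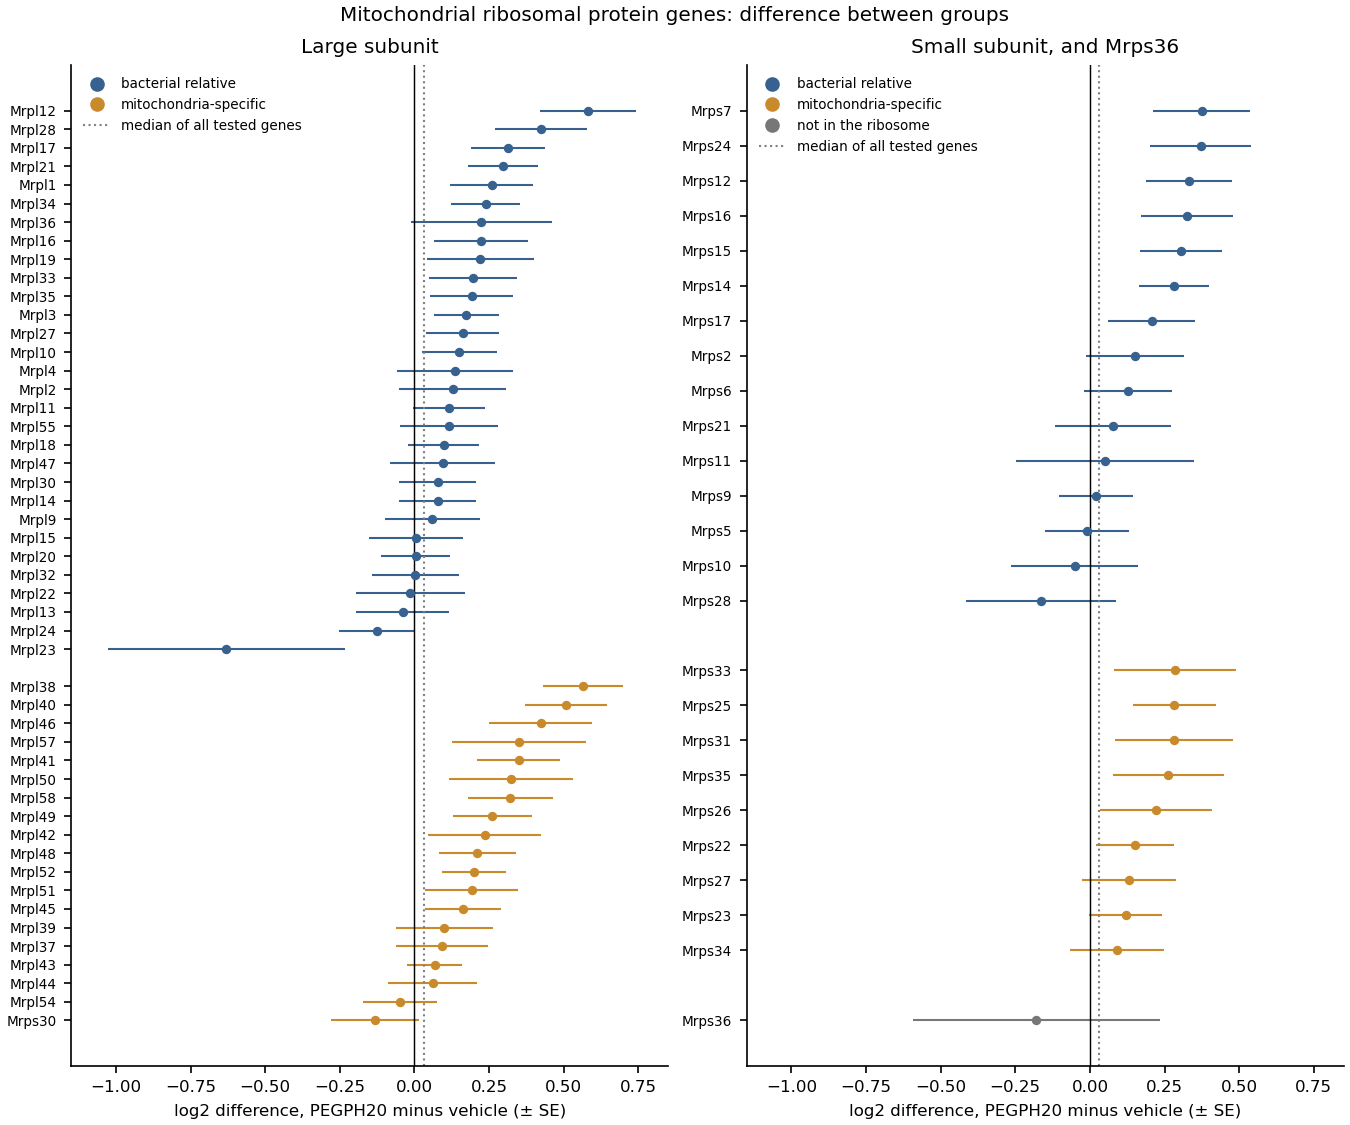
Log2 difference (PEGPH20 minus vehicle) of each of the 74 tested genes with its SE as a bar, by subunit and by whether the protein has a bacterial relative; the dotted line is the median of all 17132 tested genes, 0.03. Of the 74 points 64 lie right of 0, from Mrpl12 at 0.58 to Mrpl23 at -0.63.

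The members' level overlapped between the groups through 1 vehicle library. The mean log2(value + 1) of the tested members was 6.85, 6.74, 6.77 and 7.01 in PEGPH20 replicates 11, 12, 19 and 37, and 6.62, 6.87 and 6.55 in vehicle replicates 14, 16 and 33. The PEGPH20 mean was thus 6.84 ± 0.12 (SD, n = 4) and the vehicle mean 6.68 ± 0.17 (SD, n = 3), a gap of about the spread between tumours. Vehicle replicate 16 lay above 3 of the 4 PEGPH20 libraries, and it was the highest of the vehicle libraries for 57 of 74 members. PEGPH20 replicate 37 was the highest of all 7 for 43 members, and vehicle replicate 33 the lowest for 38.

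Leaving out vehicle replicate 16 gave the members a median difference of 0.26. Leaving out PEGPH20 replicate 37 gave 0.10, and leaving out vehicle replicate 33 gave 0.12. Vehicle replicate 16 was also the library richest in skeletal muscle markers (a summed level of 11005, where the PEGPH20 libraries held 179 to 2449 and the other vehicle libraries 232 and 683). Vehicle replicate 33 was the richest in fibroblast markers (44661). With PEGPH20, 0 of the 10 fibroblast markers and 3 of the 10 epithelial markers had a larger mean log2 value. Vehicle replicate 14 was the richest in keratinocyte markers (1095, against 40.9 to 88.5 in the others). It was also the richest in neutrophil markers (1116, against 284 to 494 in the others). The 3 libraries richest in muscle transcripts were PEGPH20 replicates 11 and 37 and vehicle replicate 16. They also had the 3 highest mean levels of the members (6.85, 7.01 and 6.87, against 6.55 to 6.77 in the others). Without these 3 libraries, which leaves 2 of each group, the members' median was 0.16. The part of fibroblast, muscle, keratinocyte and neutrophil content in the members' values was not tested.

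**Figure D2:**
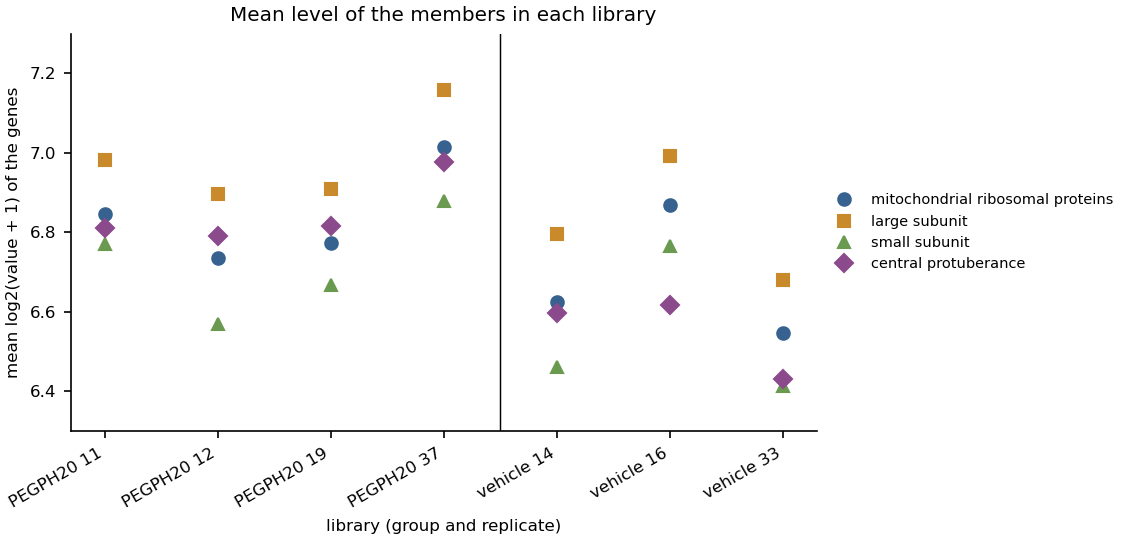
Mean log2(value + 1) of the tested members in each library, for all 74, for the large and small subunit and for the central protuberance. For all members the PEGPH20 libraries span 6.74 to 7.01, and vehicle replicate 16 (6.87) lies among them. For the central protuberance the 4 PEGPH20 libraries (6.79 to 6.98) lie above the 3 vehicle libraries (6.43 to 6.62).

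Genes of both subunits had mostly larger values with PEGPH20. Of 49 tested genes of the large subunit, which forms peptide bonds, 43 had larger values with PEGPH20, with a median of 0.16. Of 24 genes of the small subunit, which binds messenger RNA, 21 did, with a median of 0.18. Mrps30 was counted with the large subunit, where its product is found. In the large subunit, 26 of 30 relatives of bacterial proteins lay above 0 (median 0.13) and 17 of 19 tested mitochondria-specific proteins (median 0.21). In the small subunit, 12 of 15 relatives of bacterial proteins (median 0.15) and 9 of 9 mitochondria-specific proteins (median 0.22) did. The differences between these 4 medians were not tested. In the same order they were 0.22, 0.36, 0.27 and 0.34 with vehicle replicate 16 left out, and 0.07, 0.16, 0.08 and 0.17 with PEGPH20 replicate 37 left out. With vehicle replicate 33 left out, the bacterial relatives of the large subunit had 0.04, and the mitochondria-specific proteins 0.12 in both subunits.

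**Figure D3:**
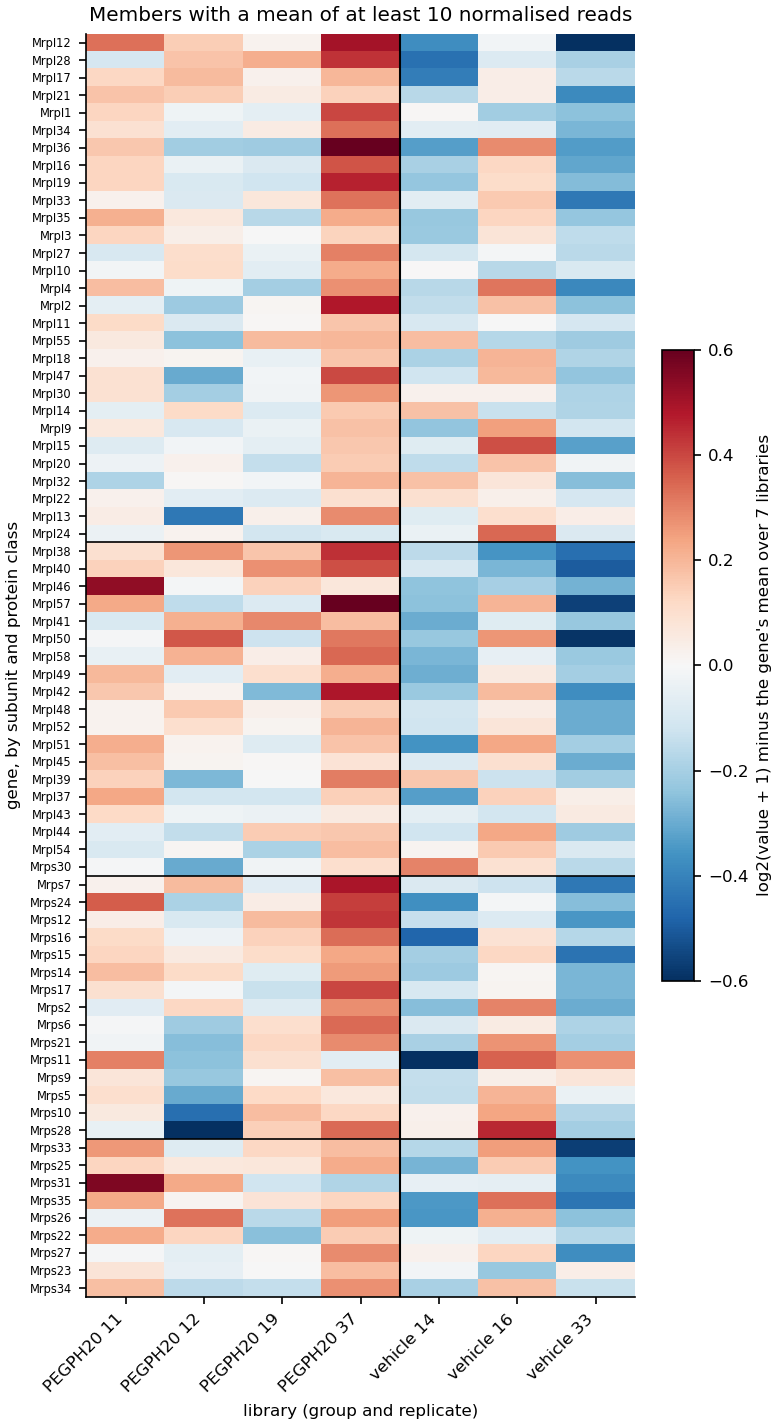
Each gene's log2(value + 1) in each library minus its mean over the 7 libraries, for the 72 members with a mean of at least 10, grouped by subunit and class as in the plot of differences; colours saturate at 0.6 in either direction. PEGPH20 replicate 37 is the reddest column and vehicle replicate 33 the bluest, and vehicle replicate 16 is mixed.

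Every gene of the central protuberance had larger values with PEGPH20, though Mrpl55 did not without the 3 muscle-rich libraries. It is the crest of the large subunit that contacts tRNA and the small subunit. Its 8 members (Mrpl18, Mrpl27, Mrpl38, Mrpl40, Mrpl46, Mrpl48, Mrpl55 and Mrpl58) lay above 0, with a median of 0.27 and a range of 0.10 to 0.56, and 0 were called. The mean log2(value + 1) of these 8 genes was 6.81, 6.79, 6.81 and 6.98 in PEGPH20 libraries and 6.60, 6.62 and 6.43 in vehicle libraries. For 4 of the 8 the groups did not overlap, which was so, with larger values, in 6.72% of all tested genes (5.56% with DESeq2 size factors). The set is small and its members were chosen with earlier results known, so nothing particular to it follows from the count.

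Mrpl38 (mL38), one of the mitochondria-specific proteins that build the protuberance, had 109, 122, 114 and 138 normalised read counts in PEGPH20 and 90.7, 79.0 and 73.7 in vehicle libraries. Every PEGPH20 value was above every vehicle value. It averaged 121 ± 12.8 with PEGPH20 (SD, n = 4) and 81.1 ± 8.65 with vehicle (SD, n = 3), a difference of 0.56 ± 0.13 (SE). It did not pass any of the 3 tests (limma's adjusted p = 0.287, edgeR's adjusted p = 0.284, DESeq2's adjusted p = 0.138). Mrpl38 ranked 111 of all genes by p, on chromosome 11 at 116131817 to 116138868.

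Mrpl40 (mL40), a neighbour of Mrpl38 in the protuberance, had 128, 121, 140 and 152 in PEGPH20 and 108, 95.6 and 81.6 in vehicle libraries, again without overlap. Its difference was 0.51 ± 0.14 (limma's adjusted p = 0.305). Mrpl40 (chromosome 16, 18872018 to 18876862) lies head to head with the histone chaperone gene Hira. Mrpl46 (mL46) had 67.9, 46.2, 51.4 and 48.9 in PEGPH20 and 39.2, 40.4 and 38.2 in vehicle libraries. The groups did not overlap, PEGPH20 replicate 11 was the highest, and the difference was 0.42 ± 0.17 (limma's adjusted p = 0.394).

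Mrpl46 and Mrps11 form a divergent pair on chromosome 7 whose 5′ ends overlap on opposite strands (78775236 to 78783531 and 78783119 to 78792989). Mrps11, a small subunit protein of the platform, had 25.7, 17.2, 22.1 and 19.7 in PEGPH20 and 12.2, 26.7 and 25.2 in vehicle libraries. These values overlapped, with a difference of 0.05 ± 0.30, so the 2 genes of the pair did not show the same order of libraries. The overlap is at the 5′ ends, while the kit reads transcripts from their 3′ end. No source used here says whether counting used strand, and whether the overlap affects either value was not tested.

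Mrpl58 (mL62), a peptidyl-tRNA hydrolase built into the ribosome that can free stalled peptides, had 73.7, 88.2, 78.4 and 97.0 in PEGPH20 and 62.8, 73.5 and 65.1 in vehicle libraries. The groups touched without overlapping, and the difference was 0.32 ± 0.14 (limma's adjusted p = 0.411). An antisense gene overlaps its exons, so its value is uncertain. The other 4 members of the protuberance were Mrpl48, Mrpl27, Mrpl55 and Mrpl18, with differences of 0.21, 0.16, 0.12 and 0.10, and overlapping groups.

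**Figure D4:**
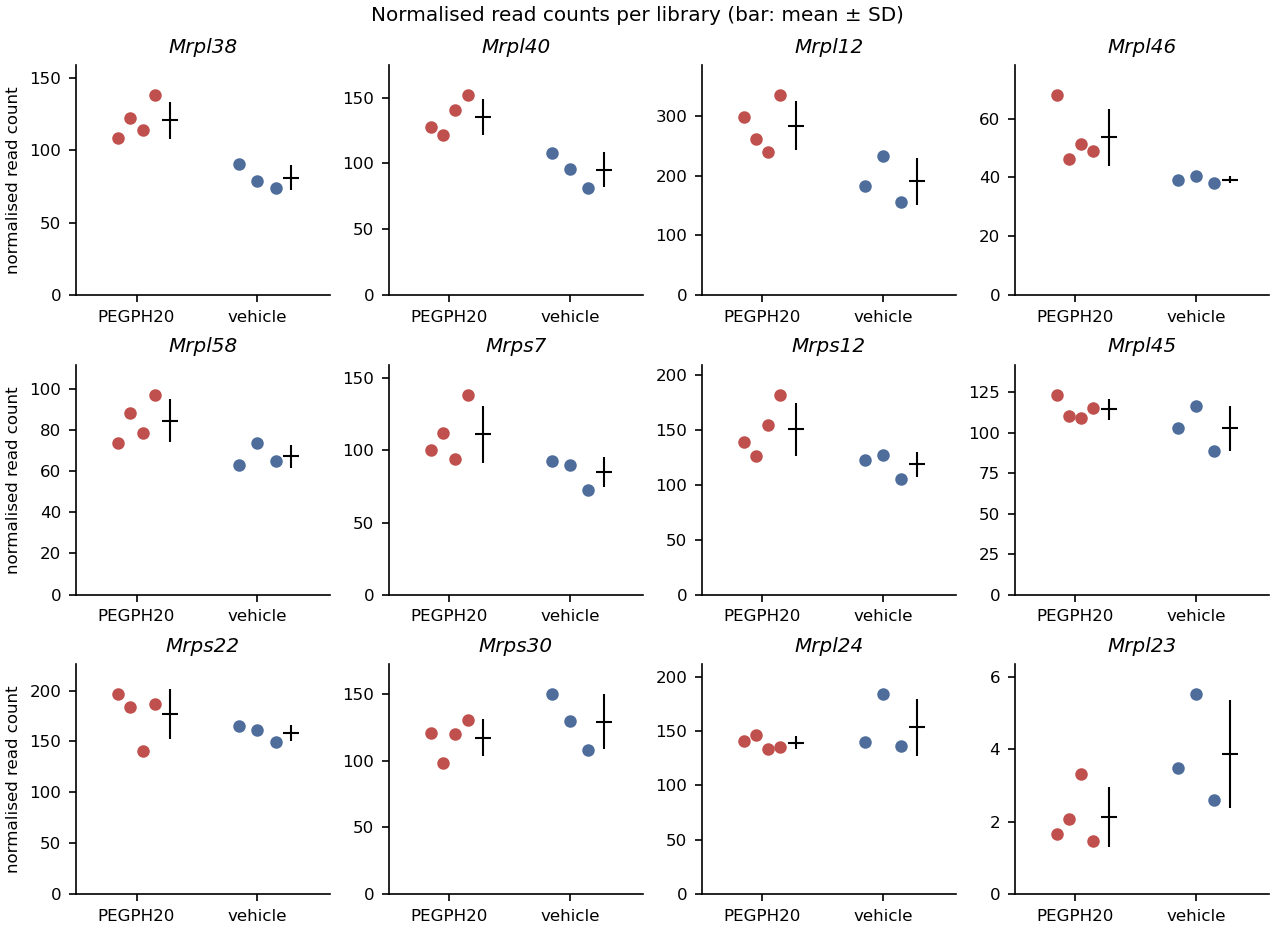
Normalised read counts of 12 members, a point per library, PEGPH20 left of vehicle, with the mean ± SD of each group beside the points and every axis starting at 0. Mrpl38, Mrpl40, Mrpl12, Mrpl46, Mrpl58 and Mrps7 have no overlap between groups, and the other 6 do.

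Of 4 tested genes of the stalk that recruits translation factors, 3 lay above 0, with a median of 0.13. Mrpl12 (bL12m), the flexible stalk protein that also binds the mitochondrial RNA polymerase, had 297, 262, 240 and 334 in PEGPH20 and 182, 233 and 155 in vehicle libraries. The groups did not overlap, though vehicle replicate 16 came close to PEGPH20 replicate 19. It averaged 283 ± 41.4 with PEGPH20 (SD, n = 4) and 190 ± 39.7 with vehicle (SD, n = 3), a difference of 0.58 ± 0.16, the largest among the members, which did not pass (limma's adjusted p = 0.313, DESeq2's adjusted p = 0.122). Mrpl12 lies on chromosome 11 (120484613 to 120489065), and an antisense gene model overlaps its exons, so its value is uncertain. Mrpl10 and Mrpl11, which anchor the stalk, had differences of 0.15 ± 0.13 and 0.12 ± 0.12. Mrpl54 had 136, 146, 127 and 165 in PEGPH20 and 146, 162 and 136 in vehicle libraries, with a difference of -0.05 ± 0.12.

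Around the exit of the peptide tunnel the differences went both ways, from -0.63 for Mrpl23 to 0.31 for Mrpl17. Of 6 genes (Mrpl17, Mrpl22, Mrpl23, Mrpl24, Mrpl45 and Mrpl47), 3 lay above 0, with a median of 0.04. That median was 0.11 with vehicle replicate 16 left out and -0.04 with PEGPH20 replicate 37 left out. Mrpl45 (mL45), which docks the ribosome to the inner membrane beside the insertase, had 123, 110, 109 and 115 in PEGPH20 and 103, 117 and 88.5 in vehicle libraries, overlapping, with a difference of 0.16 ± 0.13. Mrpl24 had 141, 147, 134 and 136 in PEGPH20 and 140, 184 and 136 in vehicle libraries. Its difference of -0.13 ± 0.13 was 0.0092 with vehicle replicate 16 left out, and a gene on the other strand overlaps its exons. Mrpl17 had 210, 219, 196 and 221 in PEGPH20 and 144, 198 and 172 in vehicle libraries, overlapping only between PEGPH20 replicate 19 and vehicle replicate 16, with a difference of 0.31 ± 0.12 (limma's adjusted p = 0.382).

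Among the other large subunit genes, Mrpl28 had a difference of 0.42 ± 0.15, Mrpl41 of 0.35 ± 0.14 and Mrpl21 of 0.30 ± 0.12. Mrpl28 had 94.5, 114, 118 and 137 in PEGPH20 and 74.1, 95.6 and 88.5 in vehicle libraries. Mrpl41, also described in cell culture as a growth-suppressing protein, had 74.6, 92.3, 97.2 and 90.5 in PEGPH20 and 64.5, 75.4 and 67.7 in vehicle libraries. Mrpl21 had 210, 206, 192 and 205 in PEGPH20 and 166, 191 and 142 in vehicle libraries, without overlap, and its exons overlap a gene on the other strand. The first pair overlapped at a single library of each group, and none of the 3 passed limma's threshold, with adjusted p-values of 0.364, 0.386 and 0.386.

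Mrpl44, which resembles a ribonuclease and is mutated in an infantile cardiomyopathy in humans, had 93.6, 88.2, 109 and 109 in PEGPH20 and 89.8, 115 and 84.2 in vehicle libraries, a difference of 0.06 ± 0.15. Mrpl13 had a difference of -0.04 ± 0.16, with 210, 152, 209 and 249 in PEGPH20 and 194, 219 and 210 in vehicle libraries. Mrps30, on the large subunit despite its symbol, had 121, 98.5, 120 and 131 in PEGPH20 and 150, 130 and 108 in vehicle libraries, a difference of -0.13 ± 0.15. In all 3 the groups overlapped widely.

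In the small subunit, 3 of 24 genes had larger values at an unadjusted p under 0.05, as had 7.58% of all genes, and none passed the threshold. Mrps7 (uS7m), a protein of the head, had 100, 112, 93.9 and 139 in PEGPH20 and 92.4, 90.1 and 72.9 in vehicle libraries, with no overlap and a difference of 0.37 ± 0.16 (limma's adjusted p = 0.406). Its exons overlap genes on the other strand. Mrps12 (uS12m), which sits at the decoding site, had 139, 127, 155 and 182 in PEGPH20 and 123, 128 and 106 in vehicle libraries, overlapping at a single library of each group, with a difference of 0.33 ± 0.14 (adjusted p = 0.406). Mrps14 had 249, 236, 207 and 260 in PEGPH20 and 187, 220 and 180 in vehicle libraries, a difference of 0.28 ± 0.12.

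Mrps22, a mitochondria-specific protein mutated in a human mitochondrial disease, had 196, 184, 141 and 187 in PEGPH20 and 165, 161 and 149 in vehicle libraries, a difference of 0.15 ± 0.13. Mrps28 had 96.1, 59.9, 109 and 125 in PEGPH20 and 101, 136 and 85.9 in vehicle libraries. PEGPH20 replicate 12 was its lowest library, and its difference of -0.16 ± 0.25 was 0.052 with that replicate left out and 0.017 with vehicle replicate 16 left out. Mrps10 had 34.8, 24.1, 38.1 and 36.5 in PEGPH20 and 34.0, 39.5 and 29.5 in vehicle libraries, a difference of -0.05 ± 0.21.

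Across all members, the groups did not overlap in 7 of 74 (9.46%, against 6.72% of all tested genes), all with larger values in PEGPH20: Mrpl38, Mrpl40, Mrpl12, Mrpl21, Mrpl46, Mrps7 and Mrpl58. No member had every PEGPH20 value below every vehicle value, against 4.45% of all genes. Of the 12515 genes with a mean of at least 10, 969 had larger values without overlap and 567 had smaller ones. With DESeq2 size factors 6 members had no overlap (8.11%, against 5.56%), and 0 had every PEGPH20 value lower (against 5.63%). The share without overlap is thus near that of all genes.

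The genes are spread over 17 chromosomes, with at most 11 on a single chromosome, chromosome 11. In GENCODE release M21, 27 members have exons that overlap a gene on the other strand and 7 share exon sequence with a gene on the same strand, 31 with either. Whether these overlaps reach the 3′ ends that the kit reads was not checked. A protein-coding gene starts head to head within 1000 bases of 16 members. Mrps12 forms such a pair with Sars2, the mitochondrial seryl-tRNA synthetase. Sars2 had 11.6, 14.5, 13.8 and 11.7 in PEGPH20 and 7.85, 6.43 and 14.7 in vehicle libraries, overlapping through vehicle replicate 33.

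Mitochondrial ribosome proteins under other symbols also had mostly larger values with PEGPH20. Of 8, 7 lay above 0, with a median of 0.23, and 0 were called. Ptcd3, a messenger RNA-binding protein of the small subunit, had 89.5, 86.1, 79.5 and 99.2 in PEGPH20 and 65.4, 61.6 and 54.7 in vehicle libraries, without overlap, a difference of 0.54 ± 0.14 (limma's adjusted p = 0.305). Mrps18a had a difference of 0.32 ± 0.18, Aurkaip1 of 0.28 ± 0.12 and Gadd45gip1 of 0.28 ± 0.15. Dap3, a GTP-binding protein of the small subunit first known from cell death, had 0.18 ± 0.13, Mrps18c 0.14 ± 0.11 and Chchd1 0.07 ± 0.09. Mrps18b, at 2.76 to 7.46 in PEGPH20 and 3.47 to 7.35 in vehicle libraries, had -0.04 ± 0.42.

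Genes that load and drive this ribosome also lay mostly above 0, with 0 called in any list. Of 20 genes of mitochondrial aminoacyl-tRNA synthesis, 19 did, with a median of 0.30. Vars2, the valyl-tRNA synthetase, had 143, 134, 136 and 128 in PEGPH20 and 81.1, 122 and 65.9 in vehicle libraries, without overlap, a difference of 0.64 ± 0.19, and Cars2, the cysteinyl one, had 0.44 ± 0.17. Of 15 translation factors 13 did, with a median of 0.16. The RNA-stabilising partners Lrpprc and Slirp had 0.27 ± 0.12 and 0.20 ± 0.10.

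Of 25 assembly and rRNA modification genes 18 lay above 0, with a median of 0.10 that was 0.23 with vehicle replicate 16 left out. Mtg2, a GTPase that matures the large subunit, had 61.3, 45.5, 47.5 and 51.1 in PEGPH20 and 27.0, 42.3 and 27.8 in vehicle libraries, without overlap, a difference of 0.67 ± 0.21. Mterf3, which in mouse represses mitochondrial transcription and aids ribosome assembly, had 44.7, 35.1, 40.9 and 43.8 in PEGPH20 and 44.5, 68.9 and 61.6 in vehicle libraries, a difference of -0.48 ± 0.19.

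The RNAs that the ribosome reads had a median difference near 0. Of 13 mitochondrial-encoded messenger RNAs 8 were tested, 4 of them lay above 0, and their median was -0.01. The other 5 (mt-Nd4l, mt-Co2, mt-Co3, mt-Atp6 and mt-Atp8) were at or near 0 in every library although cells use them, so their values do not measure them. Of the 8 tested, mt-Nd3 had the largest difference, 0.16 ± 0.27, on 116 reads in all. With DESeq2 size factors 2 of the 8 lay above 0 and the median was -0.04. With 1 library left out the median ran from -0.06 to 0.04. Mt-Co1, a cytochrome oxidase subunit, had 2846, 2609, 2884 and 2612 in PEGPH20 and 3494, 2954 and 3083 in vehicle libraries, a difference of -0.21 ± 0.09 with no overlap (limma's adjusted p = 0.410). Mt-Nd6 had a difference of -0.18 ± 0.15. All mitochondrial transcripts together were 11.04% to 12.3% of the reads with PEGPH20 and 10.97% to 11.8% with vehicle. That share takes in mitochondrial rows other than these messenger RNAs, so it is not the share of the messenger RNAs.

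Of 8 genes of mitochondrial DNA transcription and replication 5 lay above 0 (median 0.17). Ssbp1, the single-stranded DNA-binding protein of mitochondria, had smaller values with PEGPH20, 256, 250, 289 and 290 in PEGPH20 and 346, 373 and 342 in vehicle libraries, without overlap, a difference of -0.38 ± 0.10 (limma's adjusted p = 0.305). Tfam, which packages mitochondrial DNA, had 0.19 ± 0.11. Of 9 regulators of mitochondrial biogenesis 5 lay above 0 (median 0.15). Their median was 0.29 with vehicle replicate 16 left out, 0.06 with PEGPH20 replicate 37 left out and -0.07 with vehicle replicate 33 left out. The 4 below 0 were Nrf1 (-0.07 ± 0.10), Gabpa (-0.11 ± 0.16), Gabpb1 (-0.09 ± 0.12) and Yy1 (-0.05 ± 0.09). Esrra, a nuclear receptor of energy metabolism, had 128, 120, 130 and 143 in PEGPH20 and 102, 115 and 110 in vehicle libraries, a difference of 0.25 ± 0.11. Ppargc1a, a coactivator of the same genes, had 354, 237, 230 and 452 in PEGPH20 and 210, 283 and 95.4 in vehicle libraries, overlapping, with 0.77 ± 0.36. That difference was 0.32 with vehicle replicate 33 left out. Of 13 import and matrix genes 12 lay above 0, with a median of 0.21 that was 0.44 with vehicle replicate 16 left out and 0.06 with vehicle replicate 33 left out. Among them were Phb at 0.59 ± 0.17 and the chaperone Hspa9 at 0.44 ± 0.11.

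**Figure D5:**
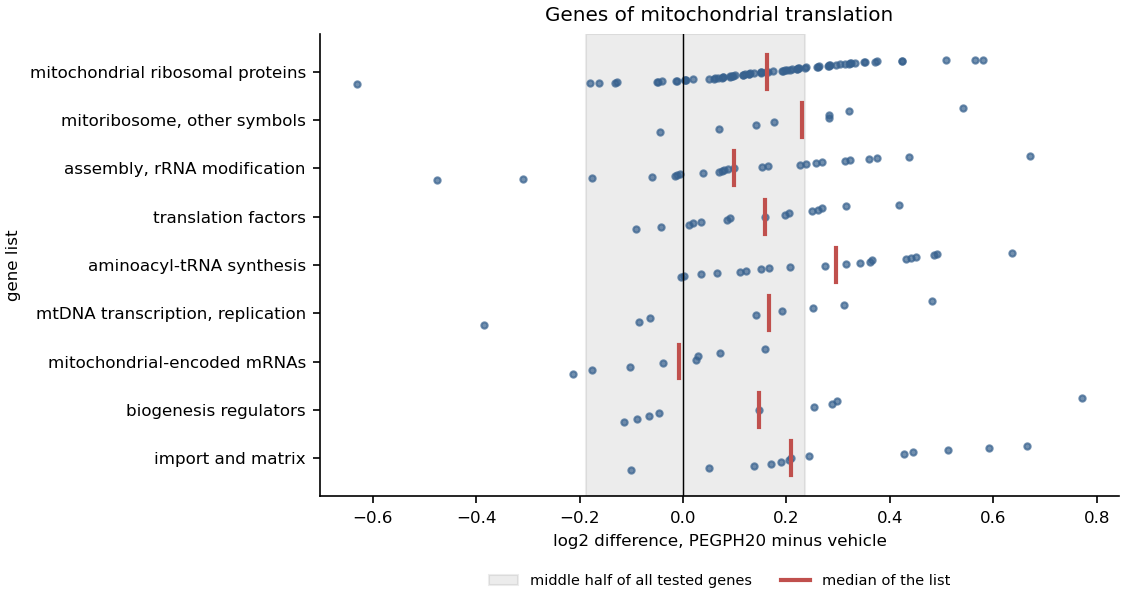
Log2 difference (PEGPH20 minus vehicle) of every tested gene in 9 lists around mitochondrial translation, a point per gene, with the list's median as a red bar and the interquartile range of all 17132 tested genes (-0.19 to 0.24) shaded. Medians run from -0.01 for the mitochondrial-encoded messenger RNAs to 0.30 for aminoacyl-tRNA synthesis, with 0.16 for the mitochondrial ribosomal proteins.

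Related families had medians on either side of the members' 0.16. Of 81 tested cytosolic ribosomal protein genes 72 lay above 0, with a median of 0.24, and of 80 nuclear-encoded oxidative phosphorylation subunits 61 did, with a median of 0.12. For the members, the cytosolic ribosomal proteins and the oxidative phosphorylation subunits the medians were 0.26, 0.34 and 0.25 with vehicle replicate 16 left out, 0.12, 0.12 and 0.05 with vehicle replicate 33 left out, and 0.13, 0.20 and 0.09 with DESeq2 size factors. These lists were taken by symbol after the values were seen, and the differences between them were not tested.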

How the data were processed

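Per the labels' protocols, 200 ng of total RNA from each of 7 flank tumours went into Lexogen QuantSeq FWD libraries, which read messenger RNA from its 3′ end, and reads were single-end of 75 nt. Molecular identifiers were optional. Per the submitters' processing notes the build is GRCm38. The sources used here give no aligner, counter, annotation or use of the identifiers. The deposited values are a signal, a read count divided by the authors' size factor per library: in every column 100% of values above 0 were whole multiples of the smallest, with a tolerance of 0.01, which gave whole reads. Symbols were found for 47224 of 47643 rows. Limma 3.58.1 was run on log2(value + 1) with an intensity trend, treatment as the only term and a minimum mean of 1. EdgeR 4.0.16 and DESeq2 1.42.0 were run on recovered reads, as the values were not raw counts. The limma fit was also run on simulated counts with known changes as a self-test. The other alternatives were DESeq2, TMM and upper-quartile scaling, 2 other filters, a pseudocount of 0.1, a threshold of 0.1, sample weights and each library left out in turn. Leaving out the libraries with over 4 times the lowest summed muscle level was added after seeing the data. Members and lists were chosen with earlier results of these data known. Named were the 8 members of smallest p per direction, 3 of highest and 3 of lowest level, and the 3 most variable. A fixed set of 8 was named too, and per list up to 2 of smallest p. Mrps7, Mrps11, Mrps14, Mrpl10, Mrpl11, Sars2, Nrf1, Gabpa, Gabpb1, Yy1, mt-Nd3 and the remaining protuberance genes were named after their values were seen. Libraries of a group differed beyond sampling noise (chi-square per degree of freedom 7.10 to 17.9), so none was a copy. The labels number the samples and do not tie each to an animal, so p-values measure only the spread between these samples. Gene positions are from GENCODE release M21, and the promoter windows are placed by RefSeq starts.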

Additional observations from a re-analysis of the deposited data

How the results depend on the processing

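No member was called under any alternative run. The members' median difference ranged from 0.10 to 0.26 with 1 library left out and from 0.12 to 0.20 under the other alternatives, always above 0. Over all genes the count of calls was 0 by limma and 77 by DESeq2 on recovered reads; it was 0 to 3 with 1 library left out, the 3 being H2-M2, Tmem158 and Psat1 without vehicle replicate 16 (named after their values were seen). Of the 74 members tested by limma, 26 turned direction under at least 1 alternative, 21 of them with 1 library left out. Of these 21, 6 also turned under another scaling, filter, pseudocount, weighting or test. The rest of the 26 turned only without the muscle-rich libraries, the alternative added after seeing the data. None of the 26 had a difference over 0.18 in size. Among named genes, values with 1 library left out ranged from -0.21 to 0.0092 for Mrpl24, -0.31 to 0.052 for Mrps28, -0.54 to 0.053 for Mrps36, -0.12 to 0.016 for Mrpl54, -0.14 to 0.10 for Mrpl13, -0.15 to 0.093 for Mrps10, -0.028 to 0.19 for Mrpl44 and -0.24 to 0.21 for Mrps18b. Without the muscle-rich libraries Mrpl24 had 0.018, Mrps36 0.061 and Chchd1 -0.0029, and with sample weights Mrps18b had 0.018. The cause was not tested. No paired analysis was possible because the groups share no replicate number. A median SE of 0.15 per member limits what 7 libraries can show.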
